A study of Mus musculus with 6 samples.

Results

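The mitochondrial ribosome is represented here by 76 genes out of 18193 measured, taken as the genes whose symbol begins with Mrpl or Mrps followed by a digit. By symbol, 47 encode proteins of the large subunit (Mrpl) and 29 proteins of the small subunit (Mrps). Each gene was read from its brightest probe set by the mean of the 6 arrays, out of 156 probe sets that carry a single such symbol. The arrays profiled sorted cells of mouse Notch1-driven T-cell acute lymphoblastic leukaemia (T-ALL). The compared groups were MycGFP positive cells (3 arrays) and MycGFP negative cells (3 arrays), the negative cells serving as the baseline. All cells of both groups carried Notch1ΔE, an activated form of the receptor NOTCH1, together with c-Myc-GFP, so that green fluorescence is the readout of MYC. They were CD25+ splenocytes of C57BL/6 mice aged 12 weeks, taken 4 weeks after transplantation into congenic recipients and sorted by mCherry and GFP. The study describes 3 independent leukaemias, so the groups are fractions of transplanted tumours, and no normal T cell enters the comparison. No label says that the replicate number marks a leukaemia.

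Mitochondria keep a ribosome of their own, which translates the few respiratory chain proteins that mitochondrial DNA encodes. All of its proteins are encoded in the nucleus, made in the cytosol and imported, while its rRNAs come from mitochondrial DNA. The small subunit reads the mRNA and holds the decoding site, and the large subunit joins the amino acids and releases the chain at the inner membrane. Some of the proteins descend from bacterial ribosomal proteins and others were gained by mitochondria. Genes for mitochondrial biogenesis are among those that MYC is known to bind in proliferating cells.

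The array medians lay between 30.5 and 32.7 intensity units (linear scale), and every one of the 76 genes was above the median of its array on all 6 arrays, at 76.3 to 7549 units. Pearson's r across all genes was 0.979 to 0.989 among positive arrays, 0.969 to 0.977 among negative arrays and 0.952 to 0.972 between the groups. Myc itself had intensities of 2628, 3390 and 2274 in MycGFP positive cells, against 801, 1135 and 1303 in MycGFP negative cells. It was higher in positive cells, at a log2 difference of 1.37 ± 0.24 (SE, limma adjusted p = 0.0329). The T-cell markers Cd3e, Cd3d and Cd3g and the CD25 gene Il2ra had intensities of 5396 and more on every array, and 0 of 8 T lineage and leukaemia identity genes passed the test in limma (1 was lower at an unadjusted p under 0.05). B cell, myeloid and erythroid marker lists had 0 of 6, 0 of 8 and 0 of 5 genes passing, with 1, 0 and 1 genes at an unadjusted p under 0.05. With the replicate number as a block in the fit, the B cell markers Blk (higher) and Cd79b (lower) and the myeloid marker S100a9 (lower) passed. The mean log2 level of the 8 myeloid markers, relative to its own mean over the arrays, was -0.26, 0.60 and -1.18 on positive arrays 1 to 3, and -0.12, 1.84 and -0.88 on negative arrays 1 to 3. The defining myeloid transcript S100a8 reached 4467 on negative array 2, whereas Cd14 was at 11.4 to 17.5 on all arrays. The same mean over the 6 B cell markers was 0.79, -0.62 and -0.20 on positive arrays 1 to 3, and 0.43, -0.35 and -0.03 on negative arrays 1 to 3. For the 5 erythroid markers it was 0.02, -0.35 and 0.10 on positive arrays, and -0.72, 0.49 and 0.45 on negative arrays. For the 8 T lineage genes, each of which had a log2 difference below 0, it was -0.36, -0.04 and -0.02 on positive arrays, and 0.10, 0.16 and 0.16 on negative arrays. The 3′ to 5′ ratio of the Gapdh control, a sign of RNA quality, was 1.58, 1.485 and 1.475 on positive arrays and 1.889, 1.582 and 1.785 on negative arrays. The same ratio of the actin control overlapped between the groups, at 1.852, 1.797 and 1.72 on positive arrays and 1.544, 1.867 and 1.832 on negative arrays.

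Of the 76 mitochondrial ribosomal protein genes, limma called 20 higher and 0 lower in MycGFP positive than in MycGFP negative cells (two-sided test, adjusted p under 0.05 over all genes). That is 26.3% of them, where 4.62% of all genes were called higher and 1.51% lower. Before adjustment, 49 had a p under 0.05 with the positive cells on top and 0 the other way, against 2677 and 1338 of all 18193 genes. The median log2 difference was 0.80, or 1.74-fold, against 0.01 over all genes. In 72 of the 76 genes (94.7%) the difference was above 0, against 51.6% of all genes. The quartiles were 0.51 and 1.08, and the range was -0.23 to 2.07. In 50 genes all 3 positive arrays exceeded all 3 negative arrays, or 65.8%, where 17.0% of all genes were separated in this direction. In 23 genes (30.3%) the log2 difference was 1 or more, against 7.90% of all genes. The 76 genes share the same arrays, so these counts describe the group and carry no test of their own. With each array centred on its median, 12 of the 76 genes passed, and over all genes 502 were higher and 381 lower, in place of 840 and 275. All genes include dim ones, whereas the 76 genes were above the median on every array. With dim genes left out, 24 of the 76 genes passed, and their median stayed at 0.80. In that smaller set 1022 genes were higher in place of 840, and its median was 0.14 in place of 0.01. More calls among fewer genes mean that the share called higher was above the 4.62% of all genes. The 4.62% is thus a low baseline for genes as bright as the 76. The contrast with all genes was thus smaller among brighter genes.

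**Figure D1:**
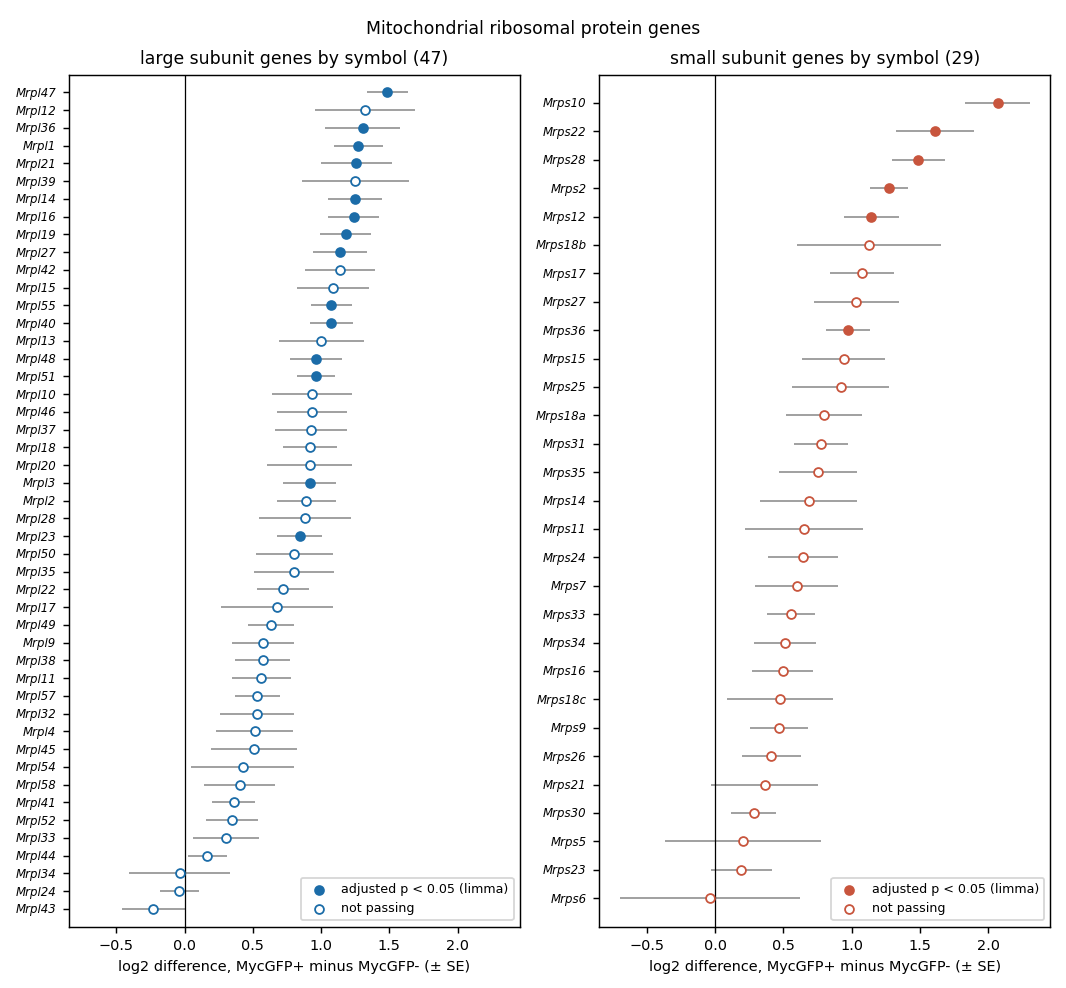
Log2 difference (MycGFP+ minus MycGFP-) with its SE for each of the 47 large subunit and 29 small subunit genes, sorted within each panel; filled points passed the test at an adjusted p under 0.05. Nearly all points lie right of 0, from Mrps10 at 2.07 to Mrpl43 at -0.23, with 4 genes left of 0.

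The number of calls depended on single arrays, whereas the median difference stayed between 0.66 and 0.91. With positive array 1, 2 or 3 left out, 4, 0 and 2 of the 76 genes passed, and with negative array 1, 2 or 3 left out, 18, 1 and 12 passed. Over all 18193 genes, 174, 0 and 104 were higher in the fits without positive array 1, 2 or 3. In those without negative array 1, 2 or 3, 862, 131 and 586 were higher. Without positive array 2 the lowest adjusted p was 0.0621 among the 76 genes and 0.0591 over all genes. In that fit 46 of the 76 had an unadjusted p under 0.05. With the replicate number as a block, 21 genes passed, 16 of them among the 20. Taken within arrays of the same number, the median log2 differences of the 76 genes were 0.85, 0.95 and 0.62 for numbers 1, 2 and 3. In 63 genes the positive array was above the negative array of the same number in all 3 cases, as in 4719 of all 18193 genes.

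The arrays within a group were not alike for these genes. Relative to each gene's mean over the arrays, the average log2 level of the 76 genes was 0.60, 0.26 and 0.32 on positive arrays 1 to 3, and -0.24, -0.68 and -0.26 on negative arrays 1 to 3. Positive array 1 was the highest of its group in 58 genes, and negative array 2 was the lowest of its group in 56 genes. The groups still kept apart on average. The array with the lowest levels was also the one with the most myeloid signal, and without it the median log2 difference was 0.66. Positive array 1, with the highest levels, also had the highest B cell marker mean and the lowest T lineage mean, and without it the median was 0.73. The part of these marker lists in the result was not tested. In such sorted samples, fewer cells of a type and less RNA per cell cannot be told apart. The spread within a group was wider in negative cells in 50 of the 76 genes, with a median SD of 0.26 on the log2 scale in positive cells and 0.33 in negative cells.

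**Figure D2:**
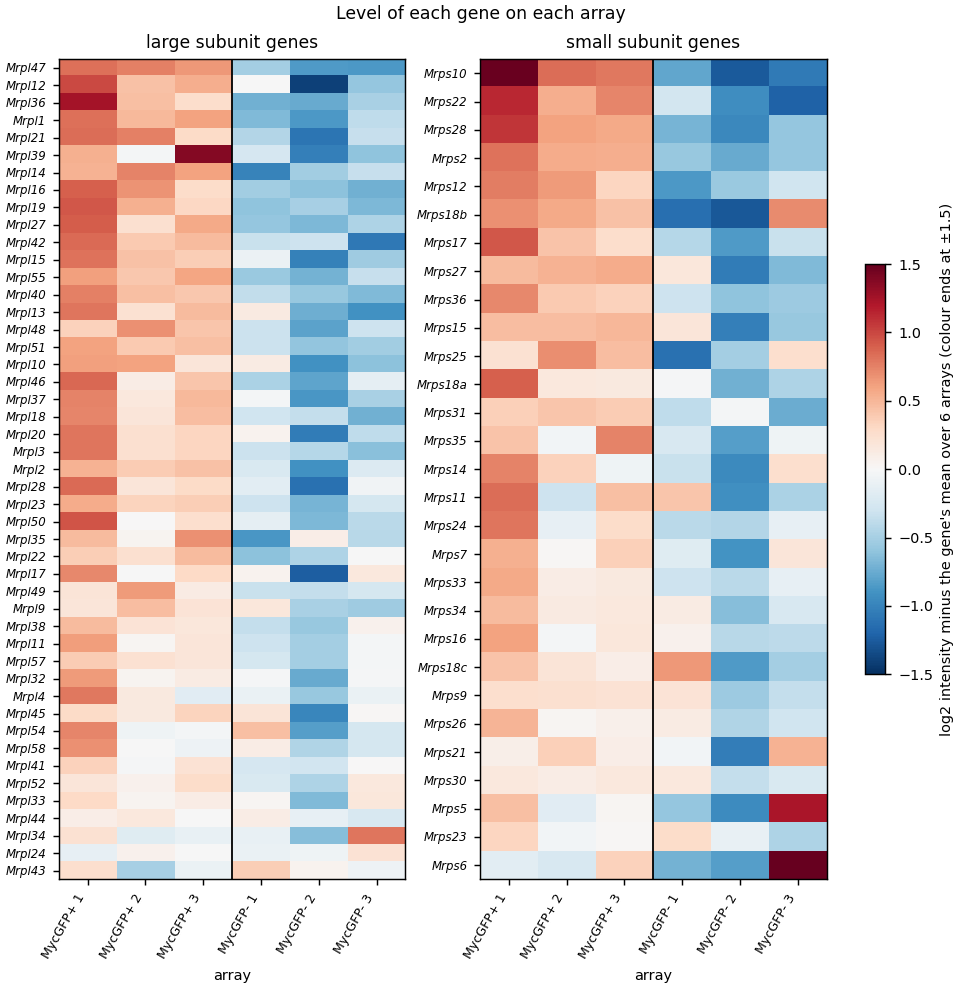
Log2 intensity of each gene on each array minus the gene's mean over the 6 arrays, MycGFP+ arrays left of the line and MycGFP- arrays right of it, genes sorted by their difference. Most genes are red on the left and blue on the right, darkest on MycGFP- array 2, and a few genes near the bottom, such as Mrps6, Mrps5 and Mrpl34, are red on MycGFP- array 3.

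Promoter sequences were read for 67 of the 76 genes from RefSeq (assembly GRCm38.p6), and 3 motifs were searched on both strands in the window from 250 bases before to 50 bases after the start site. CACGTG, the E-box that MYC and its partner MAX are known to bind, was present in 5 of the 67 windows (7.46%), those of Mrpl2, Mrpl20, Mrpl36, Mrpl37 and Mrps18c. Among the 14368 genes measured on the arrays that have a window, 10.3% held it. CCGGAAG, the core bound by ETS factors, was in 25 windows (37.3%), against 15.0% of those measured genes. GCGCATGC, a core of the site of NRF1, a regulator of nuclear genes for mitochondria, was in 8 windows (11.9%), against 4.7%. Among the 18 called genes with a window, 1 held CACGTG, 7 held CCGGAAG and 0 held GCGCATGC. These are matches of letters only. The median log2 difference was 0.92 in the 5 genes with CACGTG and 0.80 in those without. It was 0.68 with and 0.89 without CCGGAAG, and 0.70 with and 0.84 without GCGCATGC.

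The 250 bases before the start site are printed for 4 called genes, with motif letters in capitals. Mrpl47 and Mrps10 had the largest difference of a called gene in each subunit, and none of the 3 motifs was in either window. Mrpl36 was the called gene with CACGTG, whose first base lay 43 bases before the start site. Mrpl51 was the called gene with the smallest adjusted p whose window held CCGGAAG, 90 bases before the start site, and these last examples were chosen after the motifs had been found. The windows lie at chr3:32736756-32737005 (- strand), chr17:47368947-47369196 (+ strand), chr13:73330759-73331008 (+ strand) and chr6:125191950-125192199 (+ strand).
Mrpl47: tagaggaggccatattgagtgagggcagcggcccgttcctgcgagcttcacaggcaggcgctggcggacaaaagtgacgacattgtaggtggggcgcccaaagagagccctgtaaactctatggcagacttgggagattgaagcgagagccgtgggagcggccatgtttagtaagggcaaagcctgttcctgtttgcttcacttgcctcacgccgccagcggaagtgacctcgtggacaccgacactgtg
Mrps10: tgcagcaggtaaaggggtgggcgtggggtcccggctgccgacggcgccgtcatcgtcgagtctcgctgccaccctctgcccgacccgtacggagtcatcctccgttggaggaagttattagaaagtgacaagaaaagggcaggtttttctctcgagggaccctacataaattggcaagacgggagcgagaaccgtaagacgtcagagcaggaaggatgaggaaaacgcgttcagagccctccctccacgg
Mrpl36: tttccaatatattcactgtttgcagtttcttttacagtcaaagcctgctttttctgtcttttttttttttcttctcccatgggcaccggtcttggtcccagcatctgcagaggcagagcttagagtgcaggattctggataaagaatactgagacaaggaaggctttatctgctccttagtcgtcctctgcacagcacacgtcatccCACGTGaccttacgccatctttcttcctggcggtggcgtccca
Mrpl51: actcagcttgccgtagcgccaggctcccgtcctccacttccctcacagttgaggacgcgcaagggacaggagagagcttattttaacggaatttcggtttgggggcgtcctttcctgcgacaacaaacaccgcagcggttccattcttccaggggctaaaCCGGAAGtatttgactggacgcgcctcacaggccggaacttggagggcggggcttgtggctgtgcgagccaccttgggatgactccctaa

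In the small subunit, 6 of 29 genes were higher in MycGFP positive cells. Mrps10, which encodes a protein of the head of the small subunit, had intensities of 759, 488 and 470 in positive cells, against 158, 114 and 130 in negative cells. All positive arrays stood well above all negative ones, and the difference was the largest of the 76 genes, at 2.07 ± 0.24 (log2, SE), or 4.20-fold (adjusted p = 0.0148). Mrps22, a mitochondria-specific small subunit protein whose human counterpart is mutated in combined respiratory chain deficiency, had 1518, 1014 and 1152 in positive cells, against 575, 365 and 298 in negative cells. The groups did not overlap, and the gene rose 3.05-fold (log2 1.61 ± 0.29 SE, adjusted p = 0.0331). Mrps28 averaged 1862 ± 380 in positive cells and 659 ± 88.6 in negative cells (SD, n = 3 each), a log2 difference of 1.49 with an adjusted p of 0.0174. Human MRPS28 is another gene of inherited mitochondrial translation deficiency.

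Mrps2, the counterpart of a bacterial protein between the head and body of the small subunit, had narrow groups, at 669, 558 and 555 in positive cells and 256, 226 and 254 in negative cells. Its log2 difference was 1.27 ± 0.14 (SE, adjusted p = 0.0135). Mrps12, whose protein lies at the decoding centre, averaged 827 ± 127 in positive cells and 375 ± 72.5 in negative cells (SD, n = 3 each). It was called at a log2 difference of 1.15 (adjusted p = 0.0324), and with the replicate block the adjusted p was 0.0620. Mrps36, which in spite of its symbol is now known as a component of the alpha-ketoglutarate dehydrogenase complex, averaged 1227 ± 180 in positive cells and 622 ± 67.6 in negative cells (SD, n = 3 each; log2 0.98, adjusted p = 0.0289).

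Most of the remaining 23 small subunit genes had smaller differences. Mrps17 and Mrps27, singled out after their values were seen, had differences of 1.08 and 1.04 with separated groups, and did not pass (adjusted p = 0.0524 and 0.115). In several others a single array stood apart. Mrps23 had a log2 difference of 0.19 and Mrps30 of 0.28, with overlapping groups (adjusted p = 0.707 and 0.403). Mrps6 had 558, 529 and 796 in positive cells, against 382, 353 and 1887 in negative cells. Negative array 3 alone stood far above every other array, so the difference of -0.04 had an SE of 0.66, and a second Mrps6 probe set showed the same array high at 1797. Mrps5 had 764, 496 and 570 in positive cells, against 372, 291 and 1301 in negative cells, again with negative array 3 on top. The other Mrps5 probe sets above the array median on every array did not show it, with 140 and 85.7 on that array.

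The 3 Mrps18 paralogs are related copies that take different places in the ribosome: Mrps18a sits in the large subunit, and Mrps18b and Mrps18c in the small one. None of these 3 passed the test. Mrps18b had 1017, 936 and 855 in positive cells, against 288, 262 and 1033 in negative cells. Its positive arrays lay close together while negative array 3 was as high as they were (log2 1.13 ± 0.53 SE, adjusted p = 0.285). Mrps18c had 4350, 3698 and 3472 in positive cells, against 5090, 1805 and 2270 in negative cells, here with negative array 1 above all others (log2 0.47, adjusted p = 0.571). Mrps18a had 618, 370 and 368 in positive cells, against 327, 202 and 242 in negative cells. Its groups did not overlap (log2 0.80, adjusted p = 0.162), and with the replicate block it passed at an adjusted p of 0.0487.

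In the large subunit, 14 of 47 genes were higher in MycGFP positive cells. Mrpl47, a relative of the bacterial protein beside the exit of the nascent chain, had 2640, 2524 and 2336 in positive cells, against 1047, 827 and 822 in negative cells. The difference of 1.48 ± 0.15 (log2, SE), or 2.80-fold, had the smallest adjusted p of the 76 genes, 0.0116. Mrpl1, the protein of the flexible L1 stalk that guides spent tRNAs out, had 1251, 984 and 1068 in positive cells, against 444, 387 and 543 in negative cells, a rise of 2.42-fold (adjusted p = 0.0201). Mrpl16, the counterpart of a bacterial protein at the tRNA-binding face, had 818, 702 and 532 in positive cells, against 306, 286 and 266 in negative cells, and rose 2.36-fold (adjusted p = 0.0243). In each of these the lowest positive array was above the highest negative array.

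Mrpl40 and Mrpl51 encode large subunit proteins that mitochondria gained. These genes and Mrpl55, also of the large subunit, were higher in positive cells. Mrpl40 averaged 1312 ± 177 in positive cells and 622 ± 65.2 in negative cells (log2 1.07, adjusted p = 0.0223). Mrpl51 averaged 3579 ± 283 in positive cells and 1843 ± 189 in negative cells (log2 0.96, adjusted p = 0.0223). Mrpl55 averaged 527 ± 42.9 in positive cells and 251 ± 31.7 in negative cells (SD, n = 3 each; log2 1.08, adjusted p = 0.0195).

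The remaining called large subunit genes had log2 differences of 0.84 to 1.31. Mrpl36, a small protein of the large subunit, had 1307, 753 and 662 in positive cells, against 334, 327 and 395 in negative cells, with positive array 1 far above the rest of its group (log2 1.31, adjusted p = 0.0488). Mrpl21 had a log2 difference of 1.26 (adjusted p = 0.0467) and Mrpl3, whose protein reaches towards the peptidyl transferase centre, one of 0.92 (adjusted p = 0.0481). Named here to complete the count, Mrpl14, which the assembly factor MALSU1 binds in human mitochondria, differed by 1.25, Mrpl19 by 1.18, Mrpl27 by 1.14, Mrpl48 by 0.96 and Mrpl23 by 0.84, at adjusted p of 0.0259 to 0.0427. With the replicate block the calls of Mrpl36, Mrpl21 and Mrpl48 were lost (adjusted p = 0.0636, 0.0670 and 0.0760), while Mrpl12, Mrpl15, Mrpl37 and, in the small subunit, Mrps35 passed (adjusted p = 0.0425, 0.0421, 0.0376 and 0.0454). Other probe sets of Mrpl15 disagreed in direction, as described with the probe sets.

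Mrpl12, the stalk protein that recruits translation factors and is also known to bind the mitochondrial RNA polymerase, had 2242, 1526 and 1644 in positive cells, against 1118, 428 and 752 in negative cells. The groups did not overlap, but the negative arrays were wide apart (log2 1.32 ± 0.37 SE, adjusted p = 0.0957). At the other end, 3 large subunit genes had a difference below 0. Mrpl24 had 5945, 6804 and 6463 in positive cells, against 6075, 6209 and 7549 in negative cells, with an SE of 0.14 around -0.04. Mrpl43 had 1369, 818 and 1080 in positive cells, against 1496, 1194 and 1094 in negative cells (log2 -0.23, adjusted p = 0.652). Mrpl34 had 804, 605 and 634 in positive cells, against 634, 440 and 1189 in negative cells, with negative array 3 high as in Mrps6 (log2 -0.04, adjusted p = 0.974). Groups overlapped in each of these 3 genes.

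**Figure D3:**
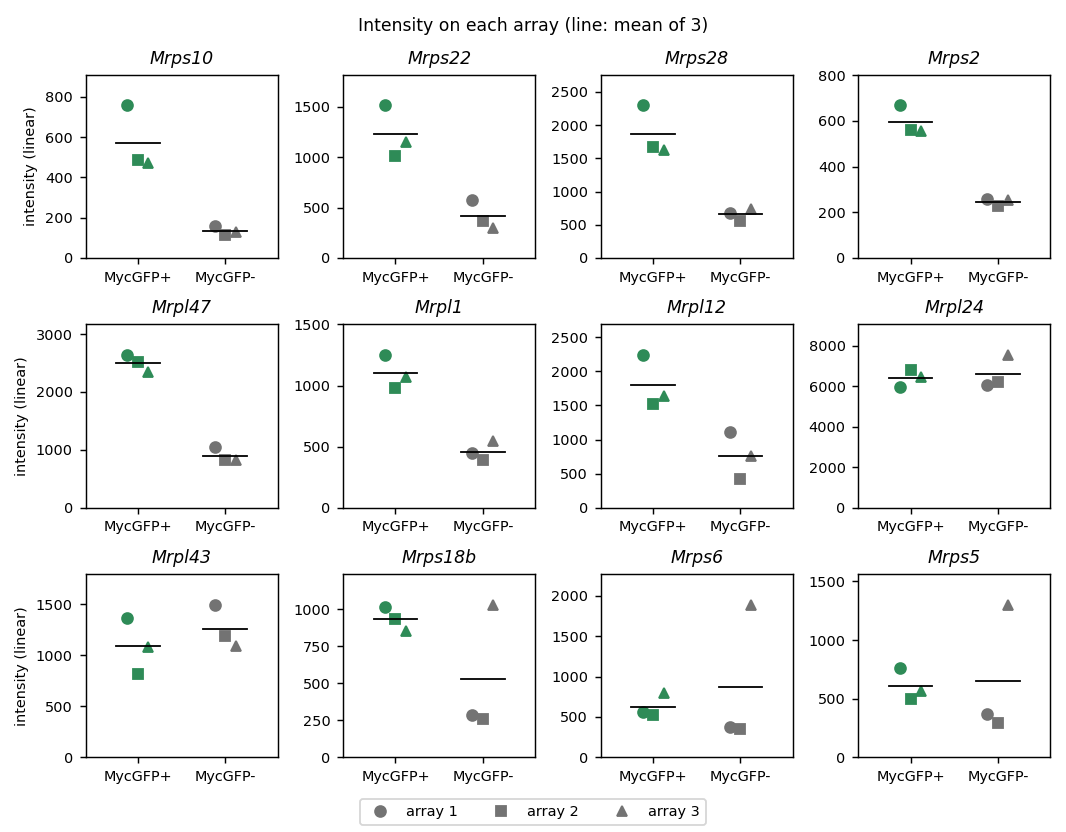
Intensity (linear scale, from 0) of 12 genes on each array, MycGFP+ left and MycGFP- right, with marker shape for the array number and a line at the mean of 3. Mrps10, Mrps22, Mrps28, Mrps2, Mrpl47, Mrpl1 and Mrpl12 are separated, Mrpl24 and Mrpl43 overlap, and Mrps18b, Mrps6 and Mrps5 each have a single high point on MycGFP- array 3.

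Large and small subunit genes were set side by side. The share of called genes was 29.8% in the large subunit (14 of 47) and 20.7% in the small subunit (6 of 29). Of all genes, dim ones included, 4.62% were called higher. Groups were separated with the positive arrays on top in 34 large subunit genes (72.3%) and 16 small subunit genes (55.2%), against 17.0% of all genes. The median log2 difference was 0.89 in large and 0.69 in small subunit genes, or 0.20 apart, while the means were 0.79 and 0.78. The quartiles were 0.53 and 1.08 in large and 0.47 and 1.04 in small subunit genes, so most of the values overlapped. Array by array, the mean level of the large minus that of the small subunit genes, relative to its mean over the arrays, was 0.02, 0.01 and 0.00 on positive arrays 1 to 3, and 0.01, 0.08 and -0.11 on negative arrays 1 to 3. On this measure the positive arrays lay inside the range of the negative arrays. The gap between the medians was 0.053 without negative array 3, on which Mrps6, Mrps5 and Mrps18b were high, and 0.26 without positive array 1.

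Counting by structure, with Mrps30 and Mrps18a moved to the large subunit and Mrps36 left out, 14 of 49 large and 5 of 26 small subunit genes were called, with median log2 differences of 0.88 and 0.67. Split by number, 43 genes carry the number of a bacterial ribosomal protein (up to 36 in the large and 21 in the small subunit) and 33 carry higher numbers, most of them for proteins gained by mitochondria. Of these groups, 12 and 8 genes were called, with medians of 0.88 and 0.75. A few higher numbers, such as Mrpl47 and Mrps28, also name proteins with bacterial relatives.

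**Figure D4:**
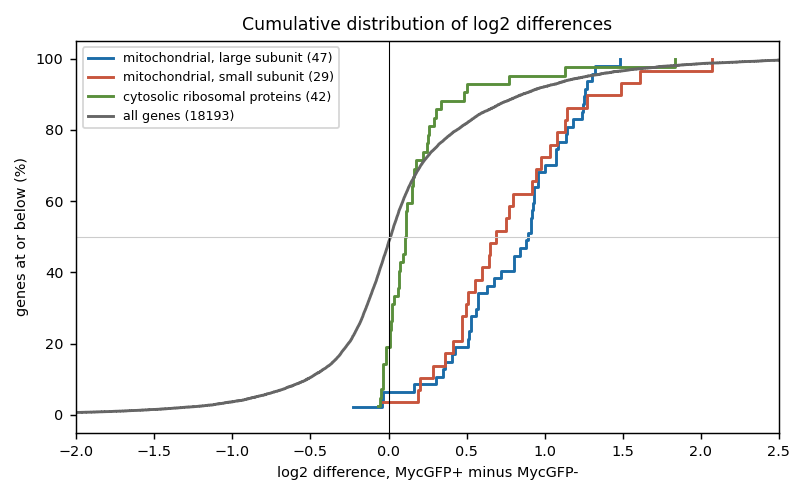
Cumulative share of genes (%) at or below each log2 difference (MycGFP+ minus MycGFP-), for 47 large and 29 small subunit genes of the mitochondrial ribosome, 42 cytosolic ribosomal protein genes and all 18193 genes; the axis leaves out the most extreme genes. The mitochondrial curves cross the middle line at 0.89 and 0.69, to the right of the cytosolic genes at 0.11 and all genes at 0.01.

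Other probe sets of the same genes gave a further measure of each transcript. There were 80 of them in 42 genes, and 51 were above the array median on all arrays, of which 42 had a difference above 0. In 6 genes, Mrpl15, Mrpl19, Mrpl27, Mrpl38, Mrpl50 and Mrpl51, another probe set passed, always with higher values in positive cells. For 3 of these, Mrpl15, Mrpl38 and Mrpl50, the probe set used had not passed. The second probe set of Mrpl27 was under the median on every array.

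Opposite signs occurred in 19 other probe sets of 17 genes, and 11 of these probe sets, in 10 genes, were above the median on all arrays. The widest conflict was in Mrpl15, a large subunit protein with a bacterial counterpart. The probe set used had 1077, 831 and 791 in positive cells, against 576, 304 and 421 in negative cells (log2 1.09). Another had 245, 376 and 331 in positive cells, against 514, 928 and 1206 in negative cells, with every positive array below every negative one (log2 -1.41, adjusted p = 0.0654). A dimmer one, at 171 to 287 in positive cells and 28.8 to 48.6 in negative cells, was the one that passed (log2 2.49). It was under the array median on negative array 3. The other Mrpl15 probe sets had log2 differences of 0.94, 1.00, 0.97, 0.42 and -0.22. With these conflicting signs no single direction is given for Mrpl15.

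For Mrpl21, the probe set used is of a type that can match several transcripts, and the next one had 117, 94.7 and 116 in positive cells, against 105, 125 and 142 in negative cells (log2 -0.18). The call of Mrpl21 thus rests on a single probe set. The opposite probe sets of Mrpl3, Mrpl38, Mrpl51, Mrps14, Mrps15 and Mrps31, also above the medians, had log2 differences of -0.39, -0.09, -0.18, -0.11, -0.29 and -0.07. Those of Mrpl34 and Mrps6 were 0.03 and 0.18, where the probe sets used lay just below 0. The opposite probe sets of Mrpl11, Mrpl13, Mrpl33, Mrpl52, Mrps9, Mrps10 and Mrps21 were under the median on at least 1 array, with differences of -0.90 to -0.04.

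The mean over a gene's probe sets lowered the log2 difference of Mrps10 to 0.90, of Mrpl47 to 0.60 and of Mrpl51 to 0.56, each still called. It ended 4 calls, those of Mrps2 (0.68, adjusted p = 0.0971), Mrpl3 (0.48, adjusted p = 0.117), Mrpl21 (0.30, adjusted p = 0.335) and Mrpl48 (0.79, adjusted p = 0.0677), and 7 other genes passed. These means give dim probe sets the same weight as bright ones. The other probe sets were at 12.5 to 24.5 for Mrps10, 17.9 to 98.1 for Mrpl47, 119 to 361 for Mrpl51 and 61.9 to 163 for Mrps2. With only probe sets of types other than _s, _x and _a, which leaves 62 of the 76 genes, 3 calls ended. These were Mrpl21, Mrpl1 (log2 1.36, adjusted p = 0.0577) and Mrpl48 (0.97, adjusted p = 0.0581), and Mrpl15 turned to -1.41 (adjusted p = 0.0702). The RefSeq table lists pseudogenes of Mrpl23, Mrpl27, Mrpl48, Mrpl51 and Mrps36, and whether their transcripts reach these probe sets was not tested. A further 4 probe sets, for Mrpl30, Mrpl53 and Mrps34, name another gene as well and were not used, so Mrpl30 and Mrpl53 were not analysed here.

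Genes that serve the same ribosome were examined in 4 lists. Of 4 measured mitoribosome proteins with other symbols, 0 passed (3 at an unadjusted p under 0.05, all higher), at a median log2 difference of 0.82. Chchd1, a small subunit protein, had 1775, 1369 and 1488 in positive cells, against 986, 558 and 601 in negative cells (log2 1.15, adjusted p = 0.0529, and 0.0342 with the replicate block). Gadd45gip1, a large subunit protein, differed by 0.86 (adjusted p = 0.109). Of 10 translation factors, 1 was higher, at a list median of 0.52, which was 0.34 without negative array 1, 0.34 with the mean of each gene's probe sets and 0.78 without negative array 3. The called factor was Gfm1, the mitochondrial elongation factor G, with 575, 731 and 775 in positive cells, against 333, 268 and 257 in negative cells (log2 1.28, adjusted p = 0.0202).

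Of 23 genes for ribosome assembly and rRNA modification, 3 were higher and 0 lower, at a list median of 0.53. Tfb1m, the methyltransferase of the small subunit rRNA, had 181, 212 and 195 in positive cells, against 51.0, 40.2 and 38.7 in negative cells. This rise of 4.55-fold (adjusted p = 0.0103) was steady across arrays in both groups, though the negative values were close to the array medians. Without probe sets of types _s, _x and _a its log2 difference was 1.84 and the call was lost (adjusted p = 0.0601). C1qbp, a mitochondrial matrix protein needed for translation, averaged 4215 ± 205 in positive cells and 1709 ± 525 in negative cells (log2 1.35, adjusted p = 0.0352). Malsu1, which keeps the immature large subunit from joining, averaged 1587 ± 48.8 in positive cells and 902 ± 48.6 in negative cells (SD, n = 3 each; log2 0.82, adjusted p = 0.0220).

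Of 12 genes for transcription and copying of mitochondrial DNA, 3 were higher and 0 lower, at a list median of 0.51. Lrpprc, which with Slirp binds and stabilises mitochondrial mRNAs, had 1142, 683 and 666 in positive cells, against 303, 278 and 239 in negative cells (log2 1.56, adjusted p = 0.0259). Ssbp1, the mitochondrial single-stranded DNA-binding protein, had a log2 difference of 0.99 (adjusted p = 0.0295). Top1mt, the mitochondrial topoisomerase, had 91.8, 74.7 and 67.8 in positive cells, against 14.9, 25.6 and 31.8 in negative cells. Its negative values lay around or under the array medians, so its log2 difference of 1.75 (adjusted p = 0.0315, and 0.0545 with the replicate block) compares a signal with near background. Averaging probe sets ended the calls of Malsu1 (adjusted p = 0.138) and Ssbp1 (adjusted p = 0.0977). The calls in the last 3 lists were lost when positive array 2 was left out, where 0 of all 18193 genes were called. Those of Gfm1, Malsu1, C1qbp and Lrpprc were also lost without positive array 3 and without negative array 2. That of C1qbp was further lost without positive array 1, as was Malsu1, and without negative array 3, as was Lrpprc. Centring the arrays on their medians ended the C1qbp call too. Without negative array 1 these genes stayed called.

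**Figure D5:**
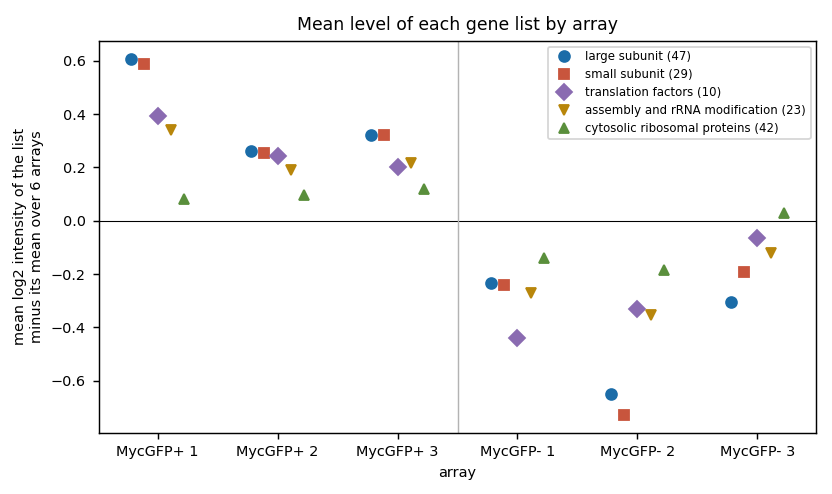
Mean log2 intensity of 5 gene lists on each array minus the list's mean over the 6 arrays, MycGFP+ arrays left and MycGFP- arrays right. Large and small subunit genes run together on every array, from 0.61 and 0.59 on MycGFP+ array 1 to -0.65 and -0.73 on MycGFP- array 2, while the cytosolic ribosomal proteins stay between -0.18 and 0.12.

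Cytosolic ribosomal protein genes gave a comparison with the other ribosome of the cell. Only genes with a probe set that names 1 symbol were counted, so the list covers a part of that ribosome. Of 42 genes, 2 were higher, Rpl14 and Rps25, which is 4.76% against 4.62% of all genes, and the median log2 difference was 0.11. The probe sets of these 2 genes were dimmer than most of the list, at 223 to 1448 for Rpl14 and 397 to 1220 for Rps25. Those of Rpl12, Rpl39 and Rps27 were dimmer still, at 34.3 to 125. The probe sets of Rps16 and Rpl37 were under the median on every array, at 5.02 to 9.41, and without these genes the median over the other 40 was also 0.11. In 27 of the 42 genes the mean intensity exceeded 9383, where the array maxima began at 18767, and 0 of the 76 mitochondrial genes were above that level. The part of such high intensities in these differences was not tested. Among proliferation genes, Mki67 had 1084, 2392 and 1878 in positive cells, against 566, 418 and 170 in negative cells (log2 2.31, adjusted p = 0.0552). Top2a had 6505, 6155 and 5138 in positive cells, against 4908, 1702 and 861 in negative cells (log2 1.61, adjusted p = 0.189). Mcm2 had 1789, 1942 and 1935 in positive cells, against 2806, 560 and 516 in negative cells (log2 1.02, adjusted p = 0.446). Negative array 1 was thus the highest of its group for all 3, and the part of proliferation in the levels of the mitochondrial ribosomal genes was not tested.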

How the data were processed

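RNA (5 ng per sample) was amplified, labelled with biotin and hybridised to Affymetrix mouse arrays, per the labels' protocols. Such amplification can add noise and favour 3′ ends. The deposited files hold linear intensities, which the authors summarised with RMA per the submitters' processing notes, with no version given in the sources used here. Because RMA brings all arrays to a common scale, total RNA per cell cannot be compared, and the number of arrays limits the precision. Log2 of each intensity was taken.

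Of 45101 probe sets, 64 were controls, 34945 had 1 gene symbol in the platform annotation, 932 several and 9160 none. Symbols were updated by Entrez identifier from the RefSeq table of GRCm38.p6 (34741 matched). Each of 18193 genes was represented by its brightest probe set. Groups came from the sample titles. limma 3.58.1 in R 4.3.3 (lmFit, eBayes, two-sided) was fitted over all genes with Benjamini-Hochberg adjustment at 0.05, with 4 residual and 2.17 prior degrees of freedom. The fit was tested on simulated data with independent noise, which checks the code and not its behaviour on correlated arrays. SEs are limma's moderated ones, folds are ratios of geometric means, and mean intensities are arithmetic.

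With the group means removed, same-numbered arrays correlated with r = 0.38, 0.21 and 0.39, and those of different number with r = -0.32 to -0.03. By these values the numbers were taken to pair the arrays, though no label says so. With group means removed, a positive r between same-numbered arrays by itself brings negative r with some of the others. The main fit did not use the pairing, and the replicate block is the alternative fit that did. The spread behind each p-value is that between these samples, which may be partly technical.

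The members and lists were chosen with earlier results of these data known. Genes were named by rule: in each subunit the 6 called genes with the smallest adjusted p and the 3 highest and lowest differences, all genes below 0, Mrpl12, Mrps30, Mrps36 and the Mrps18 paralogs, genes whose probe sets disagree, and up to 3 genes of each related list. Alternatives were the replicate block, each array left out, the mean of a gene's probe sets, probe sets of types _s, _x and _a left out, median centring, dim genes left out, a trended robust variance, array weights and subunits by structure.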

Additional observations from a re-analysis of the deposited data

How the results depend on the processing

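In every alternative run, 0 of the 76 genes were called lower, and their median log2 difference stayed above 0. The replicate block gave 21 called genes in place of 20, and the paired fit changed the calls named with their results and no other call of the named mitochondrial ribosomal genes. Centring the arrays on their medians, which moved the median of all genes from 0.01 to -0.14, left 12 genes called (8 in the large subunit), 502 genes higher and 381 lower over the whole table, and medians of 0.38 for the assembly list and 0.67 for the proteins with other symbols. A trended robust variance gave 9 called large subunit genes. The mean of a gene's probe sets gave medians of 0.64 for the large subunit, 0.66 for bacterial-numbered genes and 0.51 for proteins with other symbols, 2 called translation factors, 1 called protein with another symbol, and a gap between subunit medians of 0.055. Without probe sets of types _s, _x and _a that gap was 0.10, and Mrpl21 reversed to -0.18 (adjusted p = 0.645). In that setting Mrpl15, not called, turned to -1.41, and the calls of Mrpl1, Mrpl48 and the assembly gene Tfb1m (log2 1.84, adjusted p = 0.0601) were lost. Array weights gave 2 called translation factors, 5 assembly genes and 1 protein with another symbol, and 1 such protein was also called with the replicate block and with dim genes left out. The causes were not tested.

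With 1 array left out at a time, the genes called over the whole table ranged from 0 to 862 higher and from 0 to 238 lower, and the called mitochondrial ribosomal genes from 0 to 18 (large subunit 0 to 11, small subunit 0 to 7). The fits without an array keep fewer samples. The medians ranged from 0.71 to 0.98 in the large subunit, 0.48 to 0.84 in the small subunit and 0.67 to 0.99 in bacterial-numbered genes, and the gap between the subunits from 0.053 to 0.26. Called genes ranged from 0 to 3 for mitochondrial DNA transcription and copying, 0 to 1 for translation factors, 0 to 4 for assembly and 0 to 1 for proteins with other symbols.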
